A study of Mus musculus with 6 samples.

Results

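The integrin chains of macrophages described here are 10 genes: 5 alpha chains (Itga4, Itga6, Itgal, Itgam and Itgax) and 5 beta chains (Itgb1, Itgb2, Itgb3, Itgb5 and Itgb7). They were chosen by name from a gene count table of 48709 genes, in which 11 rows carried one of the 10 symbols because Itgam stood on 2 rows. The table came from RNA sequencing of peritoneal macrophages, taken by lavage from untreated C57BL/6 mice aged 6 to 8 weeks and sorted as F4/80+ CD11b+ cells. Zeb1 (+/-) heterozygous mice gave 3 libraries and wild-type mice gave 3 libraries, each library from a pool of 2 mice. How the Zeb1 allele was made, and in which cells it is changed, is not given in the sources used here. The sample titles give each library a set number, used here as its replicate number, that recurs in both genotypes. The labels do not say whether same-numbered sets were matched. The p-values measure the spread between pools, not between single mice.

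Integrins are receptors for matrix and for other cells, built from 1 alpha and 1 beta chain that must pair to reach the cell surface. The beta chain binds talin and kindlin inside the cell, which switch the receptor from a bent, inactive form to an extended, adhesive one. In macrophages the beta2 chain pairs with alpha L, alpha M or alpha X to make LFA-1, Mac-1 (also called complement receptor 3) or CR4. The beta1 chain pairs with alpha 6 as a laminin receptor and with alpha 4 as VLA-4, a receptor for VCAM-1 and fibronectin. CD11b, a marker of the sort, is the protein product of Itgam, so cells without it were not collected.

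Itgal, Itgam and Itgax lie on the plus strand of mouse chromosome 7 in GRCm38. Itgal (ENSMUSG00000030830.18) spans chr7:127296260-127335138, Itgam (ENSMUSG00000030786.18) chr7:128062640-128118491 and Itgax (ENSMUSG00000030789.9) chr7:128129547-128150657, with gaps of 728 kb and 11.1 kb between them. The other 7 chains are spread over chromosomes 2 (Itga6 and Itga4), 8 (Itgb1), 10 (Itgb2), 11 (Itgb3), 15 (Itgb7) and 16 (Itgb5). Promoter windows from RefSeq on GRCm38.p6, with 250 bases before and 50 bases after the start of the gene, were at hand for 6 of the 10 genes (Itgb1, Itgam, Itgax, Itga4, Itgb7 and Itgb5). They were searched on both strands for CACCTG, an E-box of the kind that ZEB1 binds. They were also searched on both strands for GAGGAAG, which holds the core bound by the myeloid factor PU.1. The E-box stood in 1 of the 6 windows (Itgb5), where 20.2% of 32851 promoter windows of the same length held it. The PU.1-type motif stood in 2 of the 6 (Itgam and Itgb7), where 13.6% of all windows held it. The motifs do not overlap each other in these windows. A match is only a match of letters and is not shown to be a bound site. The 3 windows below are those of Itgb5, with the E-box in capitals at position -109 from the gene start, of Itgam, with the PU.1-type motif in capitals at -84 and 31, and of Itgb1, which rose in Zeb1 (+/-) macrophages and holds neither motif. They are chr16:33829415-33829714, chr7:128062390-128062689 and chr8:128685404-128685703, all on the plus strand and printed 5′ to 3′.
Itgb5: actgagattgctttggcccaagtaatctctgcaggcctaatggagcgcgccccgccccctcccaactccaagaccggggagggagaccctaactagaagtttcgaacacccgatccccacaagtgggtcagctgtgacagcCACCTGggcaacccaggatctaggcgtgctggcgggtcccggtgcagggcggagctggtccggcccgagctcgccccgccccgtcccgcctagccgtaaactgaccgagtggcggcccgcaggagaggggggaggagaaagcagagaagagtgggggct
Itgam: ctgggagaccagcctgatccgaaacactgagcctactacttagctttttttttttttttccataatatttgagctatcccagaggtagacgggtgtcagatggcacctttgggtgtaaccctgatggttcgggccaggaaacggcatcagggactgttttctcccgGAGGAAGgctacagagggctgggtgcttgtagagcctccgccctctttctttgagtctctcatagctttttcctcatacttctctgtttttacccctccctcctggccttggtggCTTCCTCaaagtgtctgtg
Itgb1: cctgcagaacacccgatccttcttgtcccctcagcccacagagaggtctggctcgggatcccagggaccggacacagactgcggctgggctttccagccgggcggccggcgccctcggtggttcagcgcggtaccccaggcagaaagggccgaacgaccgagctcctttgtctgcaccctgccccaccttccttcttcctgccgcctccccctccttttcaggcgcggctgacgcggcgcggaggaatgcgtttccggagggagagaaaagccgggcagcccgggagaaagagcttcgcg

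Library totals ran from 17859872 to 42165006 counts. Core macrophage genes (7 of 7 tested) summed to 40520 to 57400 CPM (counts scaled to library size) in Zeb1 (+/-) and 39540 to 57990 CPM in wild-type libraries. Lyz2 held most of these sums (35060 to 51780 CPM in Zeb1 (+/-), 34210 to 52820 CPM in wild-type). Csf1r was lower in every Zeb1 (+/-) library (1753 to 1939 CPM, against 1984 to 2083 CPM in wild-type), Adgre1 was higher, and the others overlapped. By edgeR 0 of the 7 changed, 1 had an unadjusted p under 0.05 and DESeq2 called 1 (Adgre1). Over all genes 14.6% of 12940 had an unadjusted p under 0.05 by edgeR, and DESeq2 called 2.94% of the 11935 to which it gave an adjusted p. Zeb1 itself was at 3.64 ± 0.202 CPM in Zeb1 (+/-) and 6.74 ± 1.14 CPM in wild-type macrophages (SD, n = 3 each; edgeR adjusted p = 0.0522). Small structural RNAs split the wild-type libraries, with 43.6 to 45.5 CPM in the Zeb1 (+/-) libraries, against 42.2 CPM in wild-type replicate 3 and 4.14 to 8.69 CPM in the other wild-type libraries. A term for this split leaves wild-type replicate 3 as the only wild-type library compared with Zeb1 (+/-). Only effect sizes are therefore given for that fit. B cell markers (16 genes, 14 tested, none at 0) summed to 92.7 to 123.5 CPM in Zeb1 (+/-) and 150.3 to 299.5 CPM in wild-type libraries. Of the 14 tested B cell markers edgeR called 1, 12 had an unadjusted p under 0.05 and DESeq2 called 8. A list of 10 small cavity macrophage and monocyte markers summed to 3083 to 3112 CPM in Zeb1 (+/-) and 4540 to 4694 CPM in wild-type libraries. It was drawn up with their change already known, and 7 of its 9 tested genes were lower.

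The comparison asked which integrin mRNAs differ between Zeb1 (+/-) and wild-type peritoneal macrophages. Itgb1, the beta1 chain, rose 1.33-fold in Zeb1 (+/-) macrophages. Itgal, the alpha chain of LFA-1, fell to 10.5 CPM in Zeb1 (+/-) macrophages, against 18.4 CPM in wild-type macrophages. The other 8 chains did not pass the threshold, a Benjamini-Hochberg adjusted p of 0.05 in the quasi-likelihood test of edgeR over 12940 genes. All 10 chains passed the filter on low counts. Of the 10, 1 was higher, where 0.155% of all tested genes were higher, and 1 was lower, where 0.433% of all tested genes were lower. In either direction 0.587% of tested genes were called. Of the 10 chains 7 had an unadjusted p under 0.05 by edgeR, where 14.6% of all tested genes did. DESeq2 called 4 of the 10 higher (0.913% of all genes) and 1 lower (2.03% of all genes). For 6 of the 10 chains the 3 Zeb1 (+/-) values and the 3 wild-type values did not overlap (4 higher and 2 lower), as was the case for 19.9% of all tested genes (9.60% higher and 10.3% lower). All fold changes are Zeb1 (+/-) over wild-type. The median log2 fold change was 0.15 over the 10 chains and −0.00038 over all tested genes. In bulk RNA of sorted cells, fewer cells of a type that carries a transcript and less of that transcript per cell cannot be told apart.

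**Figure D1:**
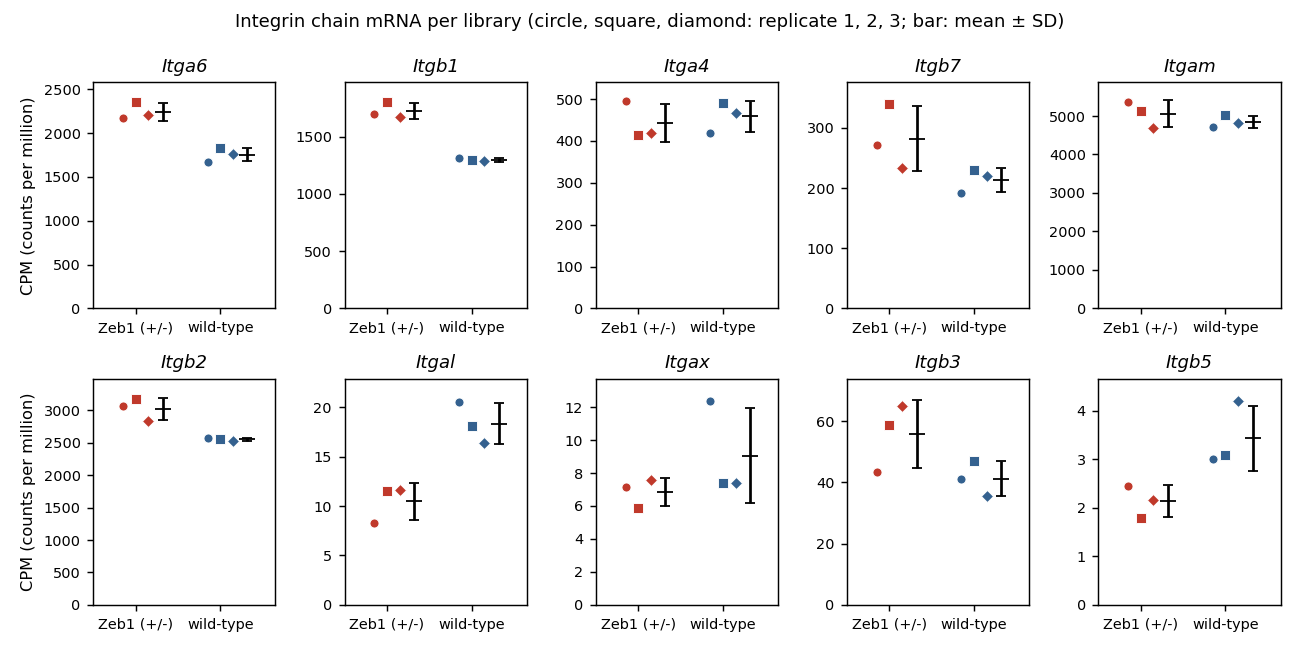
Level of each integrin chain in each library, in CPM on axes that start at 0, with Zeb1 (+/-) left of wild-type and a bar for the mean ± SD of 3 libraries. Itga6, Itgb1, Itgb2 and Itgb7 are higher in every Zeb1 (+/-) library than in any wild-type library, Itgal and Itgb5 are lower in every one, and the other 4 chains overlap.

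The chains of the laminin receptor, beta1 and alpha 6, were each higher in every Zeb1 (+/-) library than in any wild-type library. Itgb1, the partner of most alpha chains that bind matrix, was at 1701, 1802 and 1668 CPM in Zeb1 (+/-) replicates 1, 2 and 3, against 1316, 1292 and 1284 CPM in wild-type replicates 1, 2 and 3. The lowest Zeb1 (+/-) library lay well above the highest wild-type library, and the wild-type libraries differed from each other by little. The means were 1724 ± 69.9 CPM in Zeb1 (+/-) and 1298 ± 16.8 CPM in wild-type (SD, n = 3 each). The log2 fold change was 0.41 ± 0.06 (SE; 95% confidence interval 0.26 to 0.55; edgeR adjusted p = 0.0328). The call passed without Zeb1 (+/-) replicate 3 and was lost without each of the other 5 libraries (adjusted p from 0.0584 to 0.168), while the log2 fold change stayed between 0.38 and 0.44. With a term for the structural-RNA split, against wild-type replicate 3 alone, it was 0.42. With the mean of the B cell markers as a covariate it was 0.40 (adjusted p = 0.266). Its adjusted p lay between 1.1e-06 and 0.266 under the 15 other settings.

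Itga6, the alpha chain that gives laminin binding with beta1 or beta4, was at 2168, 2354 and 2203 CPM in the Zeb1 (+/-) libraries, against 1673, 1827 and 1762 CPM in the wild-type libraries. These groups did not overlap either. The log2 fold change was 0.35 ± 0.07 (SE; 95% confidence interval 0.20 to 0.51), and the edgeR adjusted p of 0.0689 missed the threshold. Itga6 passed by DESeq2 (adjusted p = 0.000246) and without a filter on low counts (adjusted p = 0.0117). Its adjusted p lay between 0.000246 and 0.307 under the other settings apart from the structural-RNA split. Itga6 is also a marker that large cavity macrophages carry. The list of 10 large cavity macrophage markers, all tested, summed to 26740 to 29460 CPM in Zeb1 (+/-) and 24590 to 25570 CPM in wild-type libraries, with 0 of 10 changed by edgeR, 4 at an unadjusted p under 0.05 and 3 called by DESeq2. Prg4 (12470 to 15020 CPM in Zeb1 (+/-), 11040 to 12180 CPM in wild-type) and Alox15 (8325 to 9452 and 7772 to 8379 CPM) held most of these sums. Whether the share of large cavity macrophages had a part in the difference in Itga6 or Itgb1 was not tested. Itgb4, the other partner of alpha 6, was at 3.13, 1.98 and 1.64 CPM in the Zeb1 (+/-) libraries, against 0.601, 1.53 and 1.43 CPM in the wild-type libraries (log2 fold change 0.92 ± 0.37 SE; edgeR adjusted p = 0.308).

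Alpha 4 is shared by beta1 and beta7. Itga4 was at 495.2, 414.3 and 419.0 CPM in the Zeb1 (+/-) libraries, against 418.7, 490.1 and 467.0 CPM in the wild-type libraries. The groups overlapped almost fully, and the log2 fold change was −0.05 (95% confidence interval −0.26 to 0.15; edgeR adjusted p = 0.829). Itgb7, whose pair with alpha 4 binds the gut vessel protein MAdCAM-1, was at 272.0, 340.3 and 233.0 CPM in Zeb1 (+/-), against 191.3, 229.7 and 219.6 CPM in wild-type. The lowest Zeb1 (+/-) value lay just above the highest wild-type value. Its log2 fold change was 0.40 ± 0.13 (SE; edgeR adjusted p = 0.218). Zeb1 (+/-) replicate 2 stood highest, and without it the log2 fold change was 0.25. Lymphocytes carry Itgb7 as well. The B cell markers, whose sums are given above, summed to less in each Zeb1 (+/-) library than in any wild-type library. T and NK cell markers (10 genes, none at 0, 4 tested, 0 called by edgeR or DESeq2 and 1 at an unadjusted p under 0.05) summed to 4.24 to 7.43 CPM in Zeb1 (+/-) and 5.86 to 9.51 CPM in wild-type libraries. With the mean of the B cell markers as a covariate the log2 fold change of Itgb7 was 0.49 (edgeR adjusted p = 0.408). With a term for the structural-RNA split, against wild-type replicate 3 alone, it was 0.36. The covariate cannot separate B cells from genotype where the marker sums do not overlap, so the part of lymphocytes in the values of Itgb7 was not tested.

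The beta2 chains make up the phagocyte integrins. Itgb2, which encodes CD18, was at 3073, 3169 and 2834 CPM in the Zeb1 (+/-) libraries, against 2575, 2566 and 2531 CPM in the wild-type libraries. The groups did not overlap and the wild-type libraries lay within a narrow band. Its log2 fold change of 0.24 ± 0.07 (SE; 95% confidence interval 0.09 to 0.40) had an edgeR adjusted p of 0.165. DESeq2 gave an adjusted p of 0.0321, the lowest over 15 other settings. Apart from the structural-RNA split the highest was 0.518. Itgam, the alpha chain of Mac-1, was at 5362, 5132 and 4688 CPM in Zeb1 (+/-), against 4705, 5025 and 4815 CPM in wild-type, with overlapping groups (log2 fold change 0.06; 95% confidence interval −0.11 to 0.23; edgeR adjusted p = 0.745).

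The second row that carries the symbol Itgam, ENSMUSG00000108596.1, is Gm49368 in GENCODE M21. It spans chr7:128062683-128128160 on the same strand, overlaps Itgam and ends 1.39 kb before Itgax. Of the 50-base stretches in Itgam transcripts 66.3% also occur in Gm49368, so reads of the 2 genes are split by estimate. Gm49368 held 0.169%, 0.189% and 0.193% of the counts of both genes in Zeb1 (+/-) replicates 1, 2 and 3, against 0.152%, 0.177% and 0.162% in wild-type replicates 1, 2 and 3. It was at 9.30 ± 0.359 CPM in Zeb1 (+/-) and 7.97 ± 0.876 CPM in wild-type (SD, n = 3 each; edgeR adjusted p = 0.391). Of the stretches of Itgax 8.02% occur in Itgad, which had 1 count over all 6 libraries. Of those of Itgb5 7.25% occur in Gm38317, and of those of Itga6 5.31% in 9 other annotated genes. The locus of Itga6 also overlaps 4 other annotated genes, which had 0 to 10 counts over all 6 libraries. Itga4 overlaps the end of Cerkl on the opposite strand, which had 267 counts in all, or 0.348% of those of Itga4. Without a stated strand setting, reads from overlapping genes on opposite strands cannot be told apart. Itgal, Itgax and the 5 beta chains overlap no other gene in this annotation.

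Itgal, which was at a low level in both genotypes, fell in Zeb1 (+/-) macrophages. Alpha L pairs with beta2 as LFA-1, which binds ICAM proteins and is best known from lymphocytes and monocytes. Itgal had 149, 488 and 381 counts in the Zeb1 (+/-) libraries, against 685, 509 and 309 counts in the wild-type libraries. These were 8.32, 11.5 and 11.6 CPM in Zeb1 (+/-), against 20.6, 18.1 and 16.4 CPM in wild-type. The groups did not overlap, and Zeb1 (+/-) replicate 1 was lowest. The log2 fold change was −0.79 ± 0.14 (SE; 95% confidence interval −1.10 to −0.49; edgeR adjusted p = 0.0482). The call passed with replicate 3 of either genotype left out and was lost without each of the other 4 libraries (adjusted p from 0.0667 to 0.188). With 1 library left out the log2 fold change ran from −0.86 to −0.67. It was −0.63 with a term for the structural-RNA split, against wild-type replicate 3 alone. With the mean of the B cell markers as a covariate it was −1.05 (adjusted p = 0.165). The adjusted p of Itgal lay between 3.6e-05 and 0.188 under the other settings apart from the structural-RNA split. The B cell and the small cavity macrophage and monocyte markers summed to less in each Zeb1 (+/-) library than in any wild-type library. Because the B cell marker sums do not overlap between genotypes, the fit with the B cell covariate cannot separate B cells from genotype. The SE of Itgal was 0.21 in that fit. Whether B cells, small cavity macrophages or monocytes had a part in the difference in Itgal was not tested.

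Itgax, which encodes CD11c, was at 7.15, 5.91 and 7.55 CPM in Zeb1 (+/-), against 12.4, 7.38 and 7.38 CPM in wild-type. Wild-type replicate 1 stood apart from the other 5 libraries. The log2 fold change was −0.42 (95% confidence interval −0.89 to 0.06; edgeR adjusted p = 0.391), and −0.11 without wild-type replicate 1. It was −0.73 with the mean of the B cell markers as a covariate (adjusted p = 0.418). With a term for the structural-RNA split, against wild-type replicate 3 alone, it was −0.11. Dendritic cells also carry CD11c. Their markers (7 genes, none at 0, 5 tested, 0 changed by edgeR or DESeq2 and 1 at an unadjusted p under 0.05) summed to 62.0 to 99.2 CPM in Zeb1 (+/-) and 73.0 to 91.2 CPM in wild-type libraries. Cd209a held most of each sum (53.8 to 86.9 CPM in Zeb1 (+/-), 62.8 to 75.7 CPM in wild-type). Flt3, Zbtb46 and Ccr7 were highest in wild-type replicate 1 (4.03, 8.47 and 1.11 CPM), and Clec9a in Zeb1 (+/-) replicate 1 (2.01 CPM). The part of dendritic cells in the values of Itgax was not tested.

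Beta3 and beta5 pair with alpha v to bind vitronectin, and beta3 also pairs with alpha IIb on platelets. Itgb3 was at 43.5, 58.7 and 65.0 CPM in the Zeb1 (+/-) libraries, against 41.1, 46.9 and 35.5 CPM in the wild-type libraries. Zeb1 (+/-) replicate 1 lay within the wild-type range, and the log2 fold change of 0.44 ± 0.15 (SE) had an edgeR adjusted p of 0.226. With the mean of the B cell markers as a covariate it was 0.04. With a term for the structural-RNA split, against wild-type replicate 3 alone, it was 0.66. Platelet markers (7 genes, 2 at 0) summed to 0.609 to 0.827 CPM in Zeb1 (+/-) and 0.584 to 0.639 CPM in wild-type libraries, with Gp1bb and Gp6 at 0 counts in all 6. Itga2b, the alpha IIb gene, is on this list and held most of the sum (0.548 to 0.709 CPM in Zeb1 (+/-), 0.425 to 0.497 CPM in wild-type). Treml1 (0.0305 to 0.112 CPM in Zeb1 (+/-), 0.142 to 0.159 CPM in wild-type) had 2, 3 and 1 counts in Zeb1 (+/-), against 5, 4 and 3 counts in wild-type. These are too few to give a direction. The rest had 0 or 1 count per library.

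Itgb5, the lowest of the 10 per kb, had 44, 76 and 71 counts in the Zeb1 (+/-) libraries, against 100, 87 and 79 counts in the wild-type libraries. These were 2.46, 1.80 and 2.16 CPM in Zeb1 (+/-), against 3.00, 3.09 and 4.20 CPM in wild-type, and the groups did not overlap. The log2 fold change was −0.69 ± 0.21 (SE; edgeR adjusted p = 0.184). It was −0.26 with the mean of the B cell markers as a covariate. With a term for the structural-RNA split, against wild-type replicate 3 alone, it was −0.995. Mesothelial and fibroblast markers (10 genes, Pdgfra at 0, none tested) summed to 0.279 to 0.543 CPM in Zeb1 (+/-) and 0.425 to 1.46 CPM in wild-type libraries. Itgav, the alpha v chain, was at 51.1 ± 1.95 CPM in Zeb1 (+/-) and 48.0 ± 1.76 CPM in wild-type (SD, n = 3 each; edgeR adjusted p = 0.555).

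**Figure D2:**
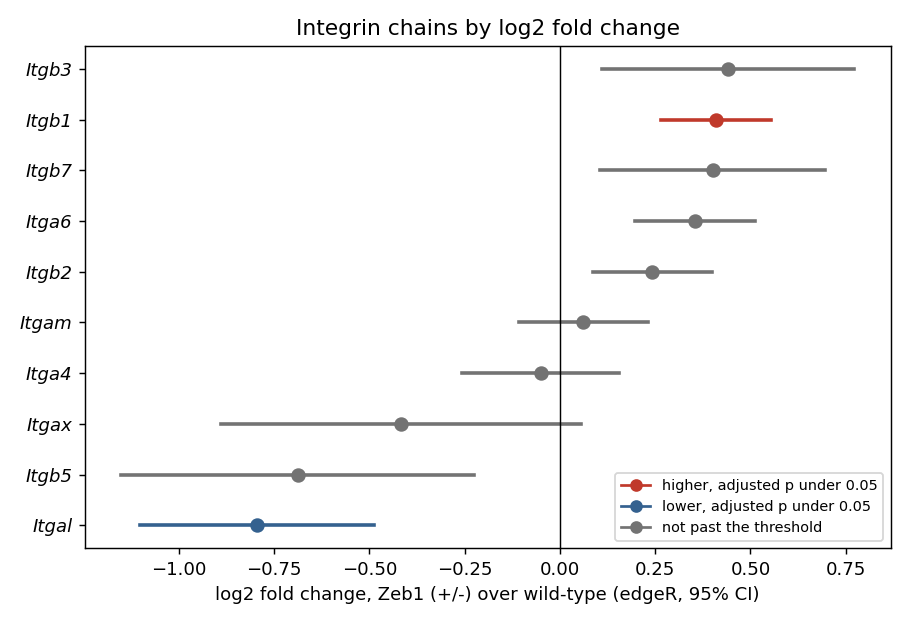
Log2 fold change of each integrin chain, Zeb1 (+/-) over wild-type, with 95% confidence intervals from edgeR. Itgb1 (0.41) is marked as higher and Itgal (−0.79) as lower at an adjusted p under 0.05, and the 8 grey chains did not pass.

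To set levels of different genes side by side, CPM was divided by the length of annotated exons in kb. On that scale Itgam was at 1007 ± 68.2 in Zeb1 (+/-) and 965 ± 32.3 in wild-type (SD, n = 3 each), followed by Itgb2 at 991 ± 56.4 in Zeb1 (+/-) and 838 ± 7.68 in wild-type. The ranges of Itgam and Itgb2 overlapped among the Zeb1 (+/-) libraries (933 to 1067 and 929 to 1038) but not among the wild-type libraries (937 to 1000 and 829 to 844). Itgb1 came next at 422 ± 17.1 in Zeb1 (+/-) and 318 ± 4.12 in wild-type. The order of the highest 6 chains was the same in both genotypes. Itga6 was at 248 in Zeb1 (+/-), with a range of 240.2 to 260.9, and at 194 in wild-type, with a range of 185.4 to 202.4. Itgb7 was at 102 ± 19.6 in Zeb1 (+/-) and 77.1 ± 7.19 in wild-type, and Itga4 at 31.7 ± 3.25 in Zeb1 (+/-) and 32.8 ± 2.61 in wild-type. No neighbours from Itgb2 down to Itga4 overlapped in either genotype. Itgb3 was at 9.45 ± 1.87 in Zeb1 (+/-) and 6.98 ± 0.963 in wild-type, with a range that overlapped that of Itga5 in both genotypes. Itgal was at 1.60 ± 0.285 in Zeb1 (+/-) and 2.79 ± 0.319 in wild-type. Itgax was at 1.43 ± 0.179 in Zeb1 (+/-) and 1.88 ± 0.600 in wild-type, and Itgb5 at 0.602 ± 0.0932 in Zeb1 (+/-) and 0.965 ± 0.187 in wild-type. Itgal and Itgax had overlapping ranges in both genotypes. The length matters for the order of Itga6 and Itgb1, because Itga6 has 9025 bases of annotated exons but a longest transcript of 4310 bases. Per kb of the longest transcript Itga6 was at 520 in Zeb1 (+/-) and 407 in wild-type, above Itgb1 at 452 in Zeb1 (+/-) and 340 in wild-type.

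**Figure D3:**
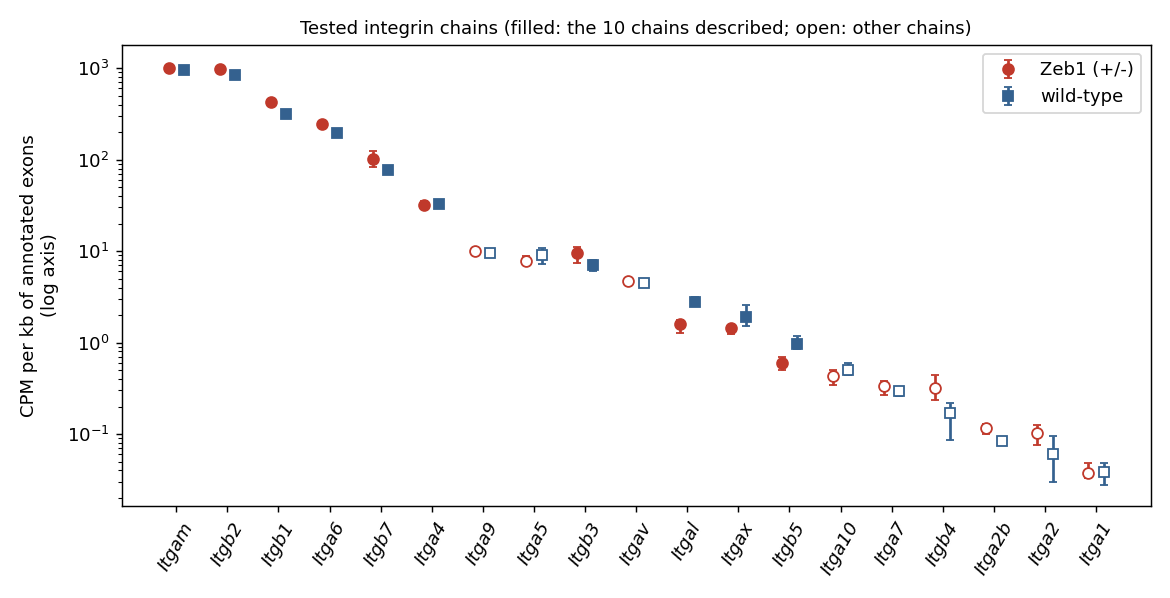
Levels of the 19 tested integrin chains in CPM per kb of annotated exons on a log axis, with the mean and the range of 3 libraries, Zeb1 (+/-) left of wild-type. The highest 6 chains, from Itgam to Itga4, are all among the 10 described, and Itgal, Itgax and Itgb5 lie below Itga9, Itga5 and Itgav.

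Ratios within a library do not depend on scaling between libraries. Of the summed per-kb levels of Itgal, Itgam and Itgax, Itgam held 99.7%, 99.7% and 99.6% in Zeb1 (+/-) replicates 1, 2 and 3, against 99.4%, 99.6% and 99.6% in wild-type replicates 1, 2 and 3. Itgal held 0.118%, 0.171% and 0.189% in Zeb1 (+/-), against 0.333%, 0.274% and 0.260% in wild-type, with no overlap. Itgax held 0.142% ± 0.0241 in Zeb1 (+/-) and 0.195% ± 0.0677 in wild-type (SD, n = 3 each). The sum of the 3 alpha chains over Itgb2 was 1.06, 0.987 and 1.01 in Zeb1 (+/-), against 1.12, 1.20 and 1.16 in wild-type, with no overlap. The sum of Itga4 and Itga6 over Itgb1 was 0.663 ± 0.00660 in Zeb1 (+/-) and 0.715 ± 0.0426 in wild-type (SD, n = 3 each), with groups that overlapped. With the length of the longest transcript this ratio was 1.25 in Zeb1 (+/-) and 1.335 in wild-type, so its size depends on the length used. Itga6 made up 87.2%, 89.8% and 89.1% of Itga4 plus Itga6 in Zeb1 (+/-), against 86.1%, 85.2% and 85.4% in wild-type. The two-sided exact permutation test gave p = 0.1 for 4 of these 6 ratios, the smallest value that 3 against 3 libraries allow, 0.2 for the alpha over beta1 ratio and 0.3 for the Itgax share. Adjusted over the 6, these exact p-values lay between 0.15 and 0.3. The shares of the 3 alpha chains add up to the whole, so the 6 ratios are not independent results.

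The other 16 integrin chains of the mouse list all lay below the highest 6 chains per kb. Itga9, Itga5 and Itgav lay above Itgal, Itgax and Itgb5. Of the 16 chains 9 were tested, and by edgeR 0 rose and 0 fell, with a median log2 fold change of 0.09. Among all 9 only Itgb4 had an unadjusted p under 0.05, and DESeq2 called none of them. Itga9 and Itga5, the most abundant of them per kb, were at 9.95 and 7.87 CPM per kb in Zeb1 (+/-), against 9.59 and 9.13 CPM per kb in wild-type. Itga5, the fibronectin receptor chain, had a log2 fold change of −0.22 (edgeR adjusted p = 0.509). Itga11 and Itgb6 had 0 counts in all libraries, which allows up to 0.0711 to 0.168 CPM per library at 3 counts, before TMM scaling. Itga8, Itgad, Itgb8, Itga3 and Itgae had 1 to 36 counts over the 6 libraries together.

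Genes that act with integrins were taken from 5 lists of other chains, activation adaptors, signalling proteins, ligands and membrane partners. Of 70 genes tested 1 rose and 0 fell by edgeR, where 0.587% of all tested genes were called, and the median log2 fold change was −0.03. The groups of 14 of the 70 did not overlap, where 19.9% of all tested genes did not. Of 16 adaptors that switch integrins on or off, 0 passed by edgeR or DESeq2 and 1 had an unadjusted p under 0.05 (median −0.02). Rap1b, the GTPase that recruits talin, was at 1050, 1042 and 987.5 CPM in Zeb1 (+/-), against 876.9, 878.6 and 976.2 CPM in wild-type (log2 fold change 0.17; edgeR adjusted p = 0.308). Talin itself (Tln1) was at 2069 ± 124 CPM in Zeb1 (+/-) and 2115 ± 185 CPM in wild-type (SD, n = 3 each; edgeR adjusted p = 0.889).

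Of 26 adhesion signalling genes 0 passed by edgeR (median −0.06), 3 had an unadjusted p under 0.05 and DESeq2 called 2 (Tns1 and Tns3). The groups of 6 of the 26 did not overlap, all 6 lower in Zeb1 (+/-), where 10.3% of all tested genes were lower without overlap. Tns3 and Tns1, tensins that tie beta chains to actin, had the smallest p-values among them. Tns3 was at 9.16, 10.4 and 10.4 CPM in Zeb1 (+/-), against 13.8, 17.5 and 13.1 CPM in wild-type (log2 fold change −0.56 ± 0.12 SE; edgeR adjusted p = 0.0948). Tns1 was at 47.0 ± 11.8 CPM in Zeb1 (+/-) and 86.5 ± 18.6 CPM in wild-type (SD, n = 3 each; log2 fold change −0.88; edgeR adjusted p = 0.0988). Tns1 was picked out after its values were seen. Tyrobp and Fcer1g, the adaptors with the most signal per kb on this list, had log2 fold changes of 0.17 and −0.08 (edgeR adjusted p = 0.396 and 0.693).

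Of 12 tested ligand genes Spp1 rose and 0 fell by edgeR (median −0.10), 5 had an unadjusted p under 0.05 and DESeq2 called 2 (Spp1 and Icam2). Spp1, which encodes osteopontin, a ligand of alpha v and alpha 4 integrins, was at 5.47, 2.81 and 10.2 CPM in Zeb1 (+/-), against 1.17, 0.817 and 1.01 CPM in wild-type (log2 fold change 2.61 ± 0.46 SE; edgeR adjusted p = 0.0482). Its call passed with Zeb1 (+/-) replicate 2 or 3 left out and was lost without each of the other 4 libraries. Fn1, fibronectin, was the most abundant ligand per kb, with 43920 ± 1817 CPM in Zeb1 (+/-) and 41720 ± 3446 CPM in wild-type (SD, n = 3 each; edgeR adjusted p = 0.727). Thbs1, thrombospondin 1, was at 3600 ± 412 CPM in Zeb1 (+/-) and 3855 ± 382 CPM in wild-type (SD, n = 3 each; edgeR adjusted p = 0.700). Icam1 and Icam2, ligands of LFA-1 named here after their values were seen, did not pass by edgeR. DESeq2 and the fit without a filter on low counts called Icam2. Icam1 was at 28.6 ± 2.73 CPM in Zeb1 (+/-) and 36.3 ± 3.95 CPM in wild-type, and Icam2 at 671 ± 57.0 CPM in Zeb1 (+/-) and 544 ± 39.6 CPM in wild-type (SD, n = 3 each; edgeR adjusted p = 0.171 for Icam1 and 0.163 for Icam2). Of 7 membrane partners 0 passed by edgeR or DESeq2, and 2 had an unadjusted p under 0.05 (median −0.01). The tetraspanin gene Cd9 was at 410.6, 380.5 and 310.6 CPM in Zeb1 (+/-), against 319.9, 285.8 and 275.6 CPM in wild-type (edgeR adjusted p = 0.223). Cd9 was called in the fit without a filter on low counts. Basigin (Bsg), the most abundant partner per kb, was at 423 ± 34.6 CPM in Zeb1 (+/-) and 371 ± 27.0 CPM in wild-type (SD, n = 3 each; edgeR adjusted p = 0.342).

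The profile over the 6 libraries was compared between genes by the root-mean-square difference of centred log2 CPM, among 8327 genes with a mean of at least 10 CPM. Nearest to Itga6 were Ndufb4 of respiratory complex I (0.044), the Toll-like receptor gene Tlr13 (0.0468) and Itgb1 (0.0555). Nearest to Itgb1 were Ndufb4 (0.0385), the aminoacylase gene Acy1 (0.0469) and Dkc1, which encodes dyskerin (0.0515). Nearest to Itgal were the lectin gene Clec4a2 (0.11), Marcksl1 of the MARCKS family (0.147) and the ribonuclease gene Ear2 (0.149). With 6 libraries many genes lie close to any profile, and nearness is a description.

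**Figure D4:**
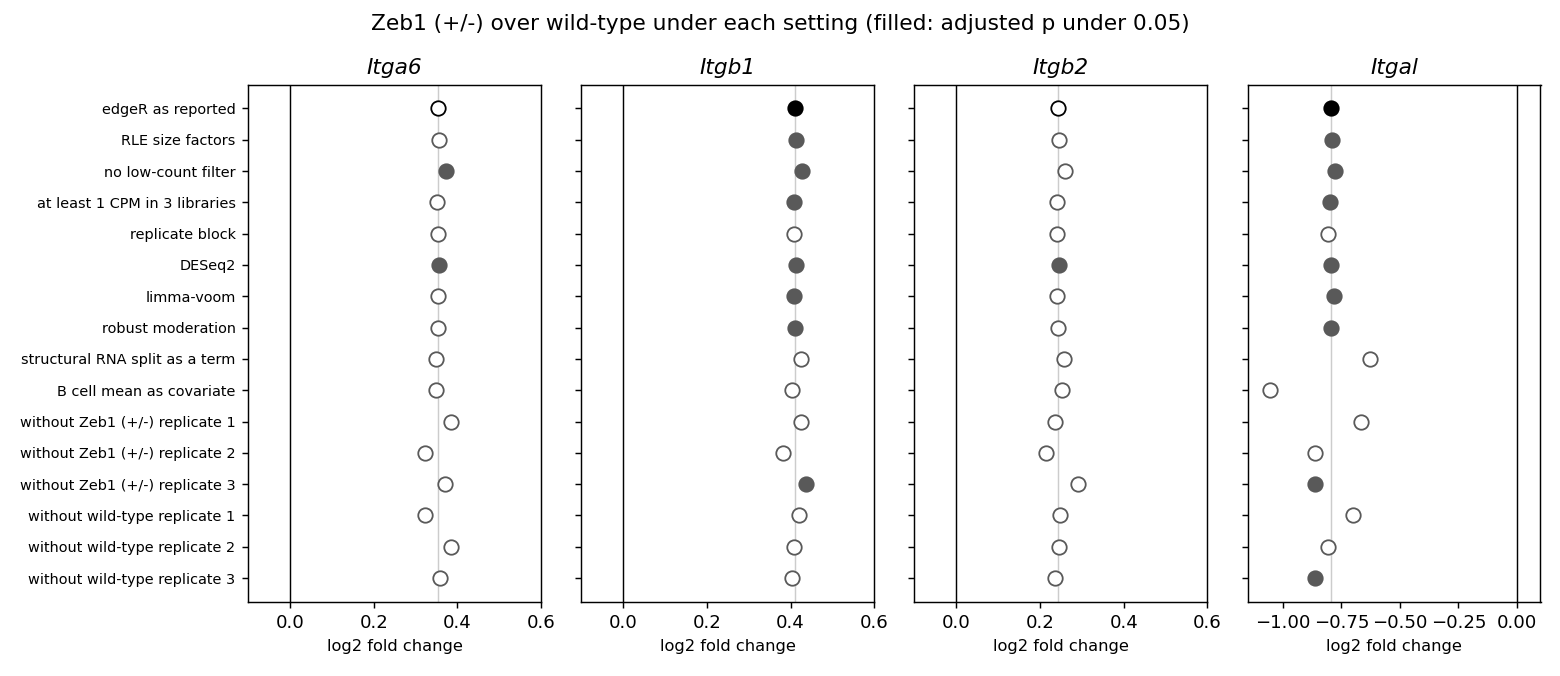
Log2 fold change of Itga6, Itgb1, Itgb2 and Itgal under the reported fit and 15 other settings, filled where the adjusted p was under 0.05. Itgb1 stays between 0.38 and 0.44 and Itgal between −1.05 and −0.63, while the adjusted p crosses the threshold between settings. The structural-RNA split sets Zeb1 (+/-) against wild-type replicate 3 alone.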

How the data were processed

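For 6 libraries the deposited table gives the estimated count of each gene, in RNA of sorted peritoneal macrophages, made by the authors on GRCm38 with STAR, RSEM and edgeR, whose roles and versions are not given in the submitters' processing notes. All values were whole numbers with unequal totals, which fits rounded RSEM output. Libraries were stranded mRNA libraries per the labels, and the strand setting of the counting is not given in the sources used here.

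Columns were mapped by the identifier in each sample's description, with 0 left unmapped. A symbol on several identifiers went to the one with the most counts, and 122 others kept their identifier. Coordinates and exon lengths come from GENCODE M21, in which 99.3% of identifiers matched without version. Genes were kept by filterByExpr of edgeR 4.0.16 (minimum count 10, minimum total 15; R 4.3.3). The quasi-likelihood test of genotype used TMM scaling (factors 0.976 to 1.01), with Benjamini-Hochberg adjustment over all tested genes. The SE is the log2 fold change over the root of F. The library totals of 17859872 to 42165006 make 1 CPM equal to 17.9 to 42.2 counts before the TMM factors, which the CPM values also include. Ratios were tested by exact permutation in SciPy 1.17.1. Alternatives were RLE factors, other low-count filters, a replicate block, DESeq2 1.42.0, limma-voom (limma 3.58.1), robust moderation, the structural-RNA split, a B cell covariate, each library left out, exon or transcript length, and Itgam summed with Gm49368.

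The genes, the lists and the rule for naming genes were chosen with earlier results of these data known. The rule named all 10 chains, Gm49368 and Zeb1, the past-threshold or smallest-p member and the 2 most abundant per kb of each list, and the 3 genes nearest to each of the 3 chains with the smallest p. The gene behind F4/80, Adgre1, was also named by it and was at 2619 ± 23.8 CPM in Zeb1 (+/-) and 2186 ± 38.6 CPM in wild-type (SD, n = 3 each; edgeR adjusted p = 0.111). Neutrophil markers (10 genes, Mpo at 0) summed to 1.37 to 2.98 CPM in Zeb1 (+/-) and 1.31 to 1.95 CPM in wild-type libraries. Markers of mast cells, eosinophils and basophils (8 genes, 3 at 0) summed to 2.18 to 3.76 CPM in Zeb1 (+/-) and 2.04 to 3.82 CPM in wild-type libraries.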

Additional observations from a re-analysis of the deposited data

How the results depend on the processing

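The 76 genes changed overall were 522 without a low-count filter, 15 with the replicate block, 351 by DESeq2, 31 with the structural-RNA split and 3 with the B cell covariate, and 5 to 127 with 1 library left out. The 2 changed chains were 5 without a low-count filter (Itga6, Itgal, Itgb1, Itgb3 and Itgb7) and 5 by DESeq2 (Itga6, Itgal, Itgb1, Itgb2 and Itgb7). They were 0 with the replicate block and 0 with the B cell covariate, and 0 to 2 with 1 library left out. The structural-RNA split sets Zeb1 (+/-) against wild-type replicate 3 alone, so no count of changed genes is given for it. The 1 changed gene of the partner lists was 5 without a low-count filter (Tns1, Spp1, Cd9, Tns3 and Icam2) and 4 by DESeq2 (Tns1, Spp1, Tns3 and Icam2). The count was 0 with a minimum of 1 CPM in 3 libraries, the replicate block, limma-voom, robust moderation or the covariate. It was 0 to 2 with 1 library left out. The cause was not tested. Itga4 turned to 0.0075 with the covariate and ran from −0.13 to 0.00067 with 1 library left out, turning positive when replicate 2 of either genotype was left out (0.00067 for Zeb1 (+/-), 0.00041 for wild-type). The other 9 chains kept their sign under every setting run.

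Whether the replicate numbers pair the libraries is not stated in the labels. Same-numbered deviations correlated at -0.25, -0.0345 and -0.174 across genes, which cannot settle it with 3 libraries per genotype. With the replicate block the log2 fold changes of Itgb1 and Itgal were 0.41 and −0.81 (adjusted p = 0.188 and 0.186). The differences in the 3 shares of beta2 partners kept their direction with the longest transcript as length, with Gm49368 added, and with each library left out. Itgb5, at 44 to 100 counts per library, is the chain that depth limits most.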
